A study of Mus musculus with 20 samples.

Results

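A cluster of 9 Trim genes on mouse chromosome 7, comprising Trim6, Trim34a, Trim5, Trim12a, Trim34b, Trim12c, Trim30b, Trim30a and Trim30d, was examined in the livers of 2 inbred strains and both sexes. Genes were taken as members when they lay on chromosome 7 and their symbol was Trim5, Trim6, Trim12, Trim30 or Trim34 with at most 1 further letter, which gave 9 of the 25444 loci in the deposited tables. The cluster was selected on the measured counts of Trim12a, which is near absent in C3 livers, so the strain differences below are a description and carry no test. Comparisons between the sexes were not used to pick it and were tested. Livers came from C57BL/6N (B6) and C3H/HeN (C3) mice of 20 weeks, with 5 females and 5 males of each strain, all untreated and of inbred genotype without an engineered allele stated. The strains differ in their tendency to form liver tumors, which is high in C3 and low in B6. Each sex had its own housing room, and an effect of the room cannot be told apart from one of sex. RNA was taken from a piece of the left lateral lobe, which holds all cell types of the liver, and fewer cells of a type cannot be told apart from less RNA per cell in such bulk samples. Libraries held 27370921 to 46835745 counted read pairs and were sequenced in 3 pools, with each group spread over all of them. The 6 hepatocyte markers, including Alb and Apoa1, were present in every group, with a summed level of 74965 to 153551 counts per 1000000 (CPM) over the 20 livers.

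TRIM proteins carry a RING domain with ubiquitin ligase activity, B-box and coiled-coil domains, and in many members of this cluster a C-terminal SPRY domain. TRIM5 proteins bind the capsid of incoming retroviruses and can also activate the TAK1 kinase and NF-kB, while mouse Trim30a is known to dampen Toll-like receptor signalling by acting on TAB2 and TAB3. Rodents carry extra copies of the TRIM5 type in the Trim12 and Trim30 genes, and many genes of this cluster are induced by type I interferon.

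In mm9, the build of the deposited tables, the 9 genes span 289 kb, at chr7:111367309-111656363. Trim6 (gene identifier 94088) lies first on the plus strand, at chr7:111367309-111383666. Trim34a (94094, chr7:111392971-111410750) and Trim34b (434218, chr7:111477985-111485131) are the other plus-strand genes. On the minus strand lie Trim5 (667823, chr7:111412962-111436620), Trim12a (76681, chr7:111448411-111464009) and Trim12c (319236, chr7:111487268-111501872), followed by Trim30b (244183, chr7:111503912-111507160), Trim30a (20128, chr7:111557540-111613707) and Trim30d (209387, chr7:111618529-111656363). Most are close neighbours, with 2039 bases between Trim12c and Trim30b, and the widest gap, between Trim30b and Trim30a, measures 50379 bases.

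**Figure D1:**
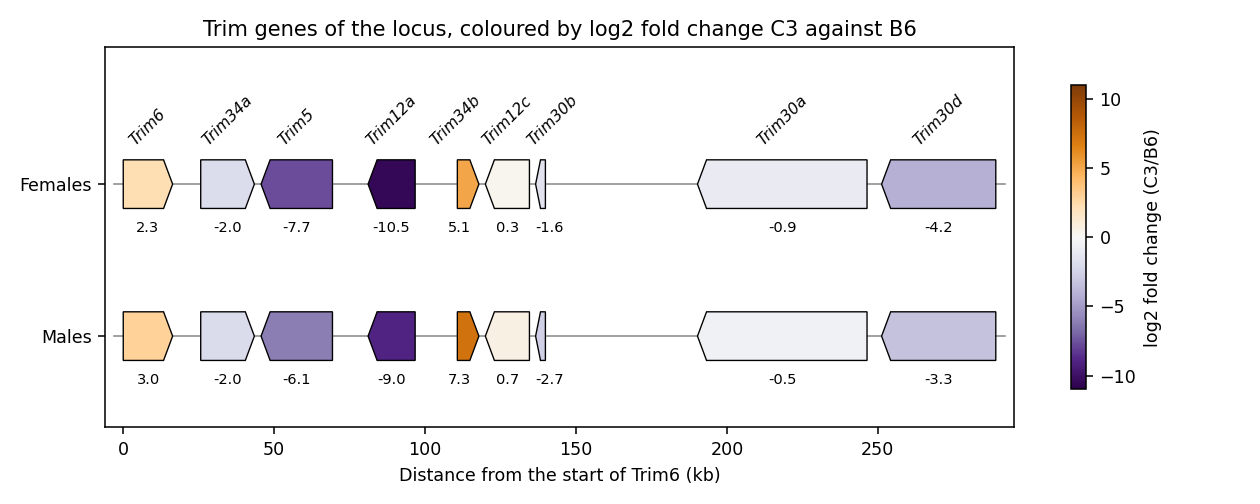
Map of the 9 Trim genes, with distance from the start of Trim6 in kb on the horizontal axis and 1 row for each sex. Arrows point in the direction of transcription and are coloured and labelled by the log2 fold change of C3 against B6, from -10.5 at Trim12a to 5.1 at Trim34b in females. The map shows that genes lower in C3 and genes higher in C3 are interspersed along the cluster.

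Several of the genes are close copies, and their sequences are shown because they bear on how reads were assigned. The coding sequences of Trim34a and Trim34b were identical at 98.8% of 1458 aligned bases, and those of Trim5 and Trim12c at 96.6% of 1494. Trim12a, whose annotated coding sequence is shorter at 984 bases, was 91.1% identical to Trim12c and 92.2% to Trim5. Trim30a and Trim30d were 90.2% identical, and the least alike pair, Trim34b and Trim30d, 61.3%. The following pairs show the same 100 coding bases, 115 to 214 from the start codon for the Trim12 genes and 53 to 152 for the Trim34 genes, with the bases that differ within each pair in capitals.
Trim12a: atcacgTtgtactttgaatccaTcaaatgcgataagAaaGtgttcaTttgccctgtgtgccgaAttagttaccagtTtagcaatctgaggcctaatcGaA
Trim12c: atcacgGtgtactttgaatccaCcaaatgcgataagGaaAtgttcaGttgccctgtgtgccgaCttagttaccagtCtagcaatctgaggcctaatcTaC
Trim34a: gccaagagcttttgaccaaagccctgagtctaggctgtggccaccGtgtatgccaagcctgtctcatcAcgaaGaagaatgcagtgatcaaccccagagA
Trim34b: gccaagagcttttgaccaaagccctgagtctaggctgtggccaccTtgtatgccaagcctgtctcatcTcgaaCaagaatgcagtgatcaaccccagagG
The Trim12 pair differs at 9 of these 100 bases and the Trim34 pair at 4. Each stretch was picked as the one with the most differing bases among those without a gap in the alignment, so other stretches can differ less.

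Read pairs that mapped to more than 1 place were not counted, so pairs from stretches that are repeated in the genome can be lost. Of all 125-base windows in the exons, 28.8% of those of Trim34b, 22.7% of Trim5 and 19.6% of Trim34a occurred again elsewhere in the B6-derived mm9 genome. That share was 13.8% for Trim30b, 8.60% for Trim30d, 4.91% for Trim12c, 4.80% for Trim12a and 4.07% for Trim30a, and it was 0 of 3923 windows for Trim6. Trim34a and Trim34b shared 264 windows with each other, Trim5 shared 142 with Trim12c and 70 with Trim12a, and Trim12a and Trim12c shared none. These shares count exact single windows within exons rather than read pairs, so they do not give the size of the loss. How reads carrying C3 variants aligned to the copies was not tested.

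The stretches at the starts of 6 of the genes are shown because they hold the core of the interferon-stimulated response element. Both strands of the window from 250 bases before to 50 bases after each start were searched for GAAA followed, after any 2 bases, by GAAA. All 6 matches lay in the opposite orientation on the gene's strand, and the matching 10 bases are in capitals at the end of each 60-base stretch of mm9, written 5′ to 3′ on the gene's strand.
Trim34a, chr7:111392931-111392990, plus strand: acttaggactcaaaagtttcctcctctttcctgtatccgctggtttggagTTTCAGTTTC
Trim5, chr7:111436660-111436719, minus strand: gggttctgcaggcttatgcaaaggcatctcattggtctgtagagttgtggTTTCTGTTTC
Trim12a, chr7:111463990-111464049, minus strand: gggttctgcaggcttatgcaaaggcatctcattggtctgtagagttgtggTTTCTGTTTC
Trim12c, chr7:111501883-111501942, minus strand: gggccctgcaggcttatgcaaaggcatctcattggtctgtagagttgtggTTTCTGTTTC
Trim30a, chr7:111613734-111613793, minus strand: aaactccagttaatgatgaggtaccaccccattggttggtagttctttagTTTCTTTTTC
Trim30d, chr7:111656395-111656454, minus strand: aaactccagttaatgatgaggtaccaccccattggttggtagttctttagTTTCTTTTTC
The stretches of Trim5 and Trim12a were identical over 60 bases, Trim12c differed from both at 2 bases, and those of Trim30a and Trim30d were identical. The match began 49 bases before the start in Trim5, 20 in Trim12c, 36 in Trim30a and 41 in Trim30d, and 10 bases after the annotated start in Trim12a and Trim34a. These letters were found in the window of 66.7% of the 9 genes, 53.1% of 32 interferon-stimulated genes, 5.17% of 58 other Trim genes and 3.57% of all 25283 loci with a window. They were not in the windows of Trim6, Trim34b and Trim30b, and a match is a description of the reference sequence rather than a measured site.

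All 9 genes passed the filter on low counts, which kept 13704 genes. Of these, Trim12a and Trim5 did so through B6 livers, Trim30b through B6 females and Trim34b through C3 livers. In both sexes, 6 genes (Trim34a, Trim5, Trim12a, Trim30b, Trim30a and Trim30d) had lower fitted levels in C3 than in B6 and 3 (Trim6, Trim34b and Trim12c) had higher ones. With a call defined as an adjusted p under 0.001 and a log2 fold change over 0.5 in either direction, 7 of 9 were called in females, where 9.40% of all genes were called. In males 8 of 9 were called, with 9.64% of all genes called. Values of the 5 C3 livers and the 5 B6 livers did not overlap for 8 of 9 genes in females and 8 of 9 in males, against 13.1% and 15.5% of all genes. Because the strain contrast picked the cluster, these counts are given without being read further.

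**Figure D2:**
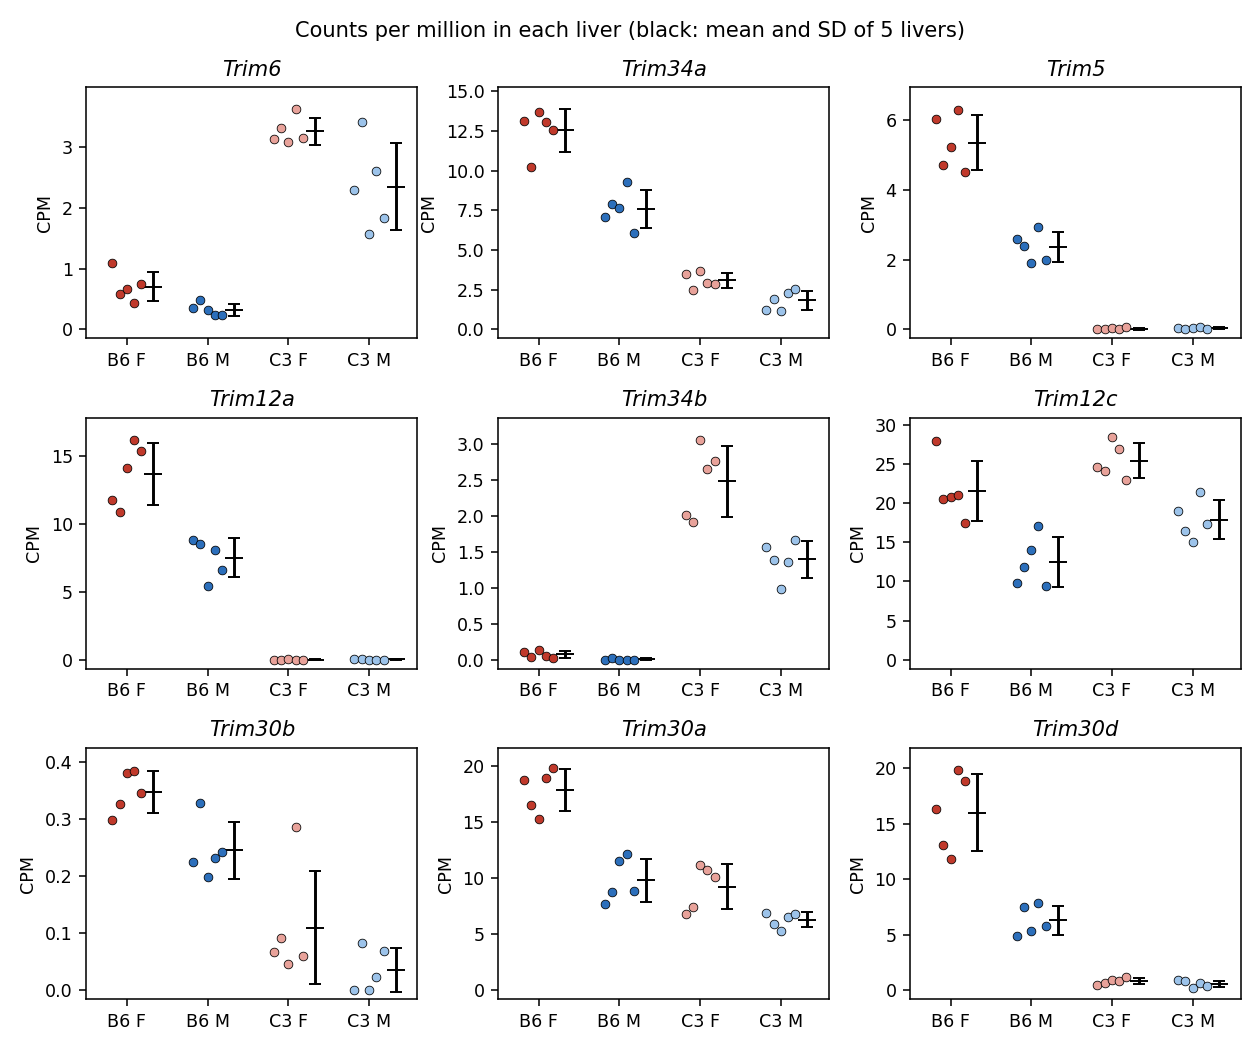
Level of each gene in CPM (vertical axis, a separate scale for each gene) in every liver, by strain and sex. Points are single livers and black bars show the mean and SD of 5. Trim12a, Trim5 and Trim30d sit close to 0 in C3, Trim34b sits close to 0 in B6, and Trim12c overlaps between the strains.

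Trim12a, a gene of the TRIM5 type, was nearly undetected in C3. The B6 females had 553, 502, 409, 589 and 535 counts and the B6 males 277, 285, 219, 316 and 219. The C3 females had 0, 0, 1, 0 and 0 counts and the C3 males 1, 1, 0, 0 and 0. No C3 liver therefore came near any B6 liver, whose females averaged 13.7 CPM ± 2.27 (SD, n = 5) and whose males averaged 7.51 CPM ± 1.43. Scaled to library totals, the summed counts in C3 were 0.000400 of those in B6 for females, with a 95% interval from counting error of 1.01e-05 to 0.00223. For males the ratio was 0.00156 (0.000188 to 0.00563). Intervals of this kind leave out variation between mice and treat read pairs as independent, which PCR copies are not.

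Trim12c, the close copy of Trim12a with the full-length coding sequence, stayed abundant in both strains. The B6 females measured 27.9, 20.5, 20.8, 21.0 and 17.4 CPM and the C3 females 24.6, 24.1, 28.5, 27.0 and 22.9 CPM. The B6 males measured 9.85, 11.8, 14.01, 17.1 and 9.45 CPM and the C3 males 19.0, 16.4, 15.0, 21.5 and 17.4 CPM. The strains overlapped in both sexes, and the log2 fold change of C3 against B6 was 0.33 ± 0.11 (SE) in females, which was not called, and 0.66 ± 0.12 in males. The call in males was lost without B6 male 1, B6 male 5 or C3 male 4.

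Trim5, the gene that gives the TRIM5 type its name, followed the pattern of Trim12a. Counts were 282, 217, 151, 229 and 156 in B6 females and 81, 80, 76, 114 and 66 in B6 males. Counts were 0, 0, 2, 0 and 2 in C3 females and 1, 0, 1, 3 and 0 in C3 males. Every C3 liver was at or under 3 counts and every B6 liver at or above 66. The summed counts in C3 were 0.00400 (95% counting interval 0.00109 to 0.0103) of those in B6 females, and in males 0.0123 (0.00396 to 0.0289).

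The Trim34 pair moved in opposite directions. Trim34a was lower in C3, with 13.1, 10.3, 13.7, 13.1 and 12.5 CPM in B6 females against 3.46, 2.49, 3.66, 2.94 and 2.85 CPM in C3 females. In males it measured 7.07, 7.91, 7.61, 9.30 and 6.07 CPM in B6 against 1.24, 1.91, 1.12, 2.27 and 2.52 CPM in C3. The groups did not overlap, and the log2 fold changes were -1.95 ± 0.17 (SE) in females and -1.99 ± 0.18 in males, close to a 4-fold difference in each sex.

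Trim34b was the reverse, nearly undetected in B6 and present in C3. The B6 females had 5, 2, 4, 2 and 1 counts and the B6 males 0, 1, 0, 0 and 0, against 61, 84, 132, 93 and 94 counts in C3 females and 43, 51, 35, 60 and 49 in C3 males. All C3 livers exceeded all B6 livers. The summed counts in C3 were 34.3 times those in B6 for females (95% counting interval 20.2 to 63.3) and 244 times for males (43.3 to 9658), where B6 males held 1 count in all. Even in C3, Trim34b reached only 2.48 CPM ± 0.494 in females and 1.396 CPM ± 0.263 in males.

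Among the Trim30 genes, of which Trim30a is the one known to dampen Toll-like receptor signalling, the strain difference ran from small to large. Trim30d showed the largest, with 16.4, 13.1, 11.8, 19.8 and 18.9 CPM in B6 females against 0.495, 0.663, 0.949, 0.800 and 1.18 CPM in C3 females. In males it measured 4.89, 7.49, 5.35, 7.89 and 5.80 CPM in B6 and 0.877, 0.791, 0.225, 0.658 and 0.341 CPM in C3. No strain group overlapped the other, and the log2 fold changes were -4.20 ± 0.23 in females and -3.31 ± 0.25 in males.

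Trim30a, the best studied of them, differed less. It measured 15.2 to 19.8 CPM in B6 females and 6.80 to 11.2 CPM in C3 females, a log2 fold change of -0.88 ± 0.14. In males the ranges were 7.70 to 12.1 CPM in B6 and 5.29 to 6.83 CPM in C3, a log2 fold change of -0.51 ± 0.14, which was not called although the ranges did not overlap. The 60 bases shown above for Trim30a and Trim30d come from the B6-derived mm9, and the C3 sequence was not examined.

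Trim30b was close to the detection limit, which at 3 counts corresponds to 0.0641 to 0.110 CPM. It had 11 to 15 counts in B6 females and 7 to 11 in B6 males, against 2, 4, 2, 10 and 2 in C3 females and 0, 3, 0, 1 and 2 in C3 males. The log2 fold change was -1.58 ± 0.40 in females, which was not called, and -2.68 ± 0.55 in males. With only the male livers in the fit it did not pass the filter on low counts. The call in males was lost when any 1 of the 10 male livers was left out, and in females a call appeared without C3 female 4.

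Trim6, the first gene of the cluster and a ubiquitin ligase of interferon signalling, was higher in C3. It measured 1.09, 0.588, 0.657, 0.440 and 0.750 CPM in B6 females against 3.13, 3.32, 3.08, 3.63 and 3.15 CPM in C3 females. In males it measured 0.352, 0.477, 0.323, 0.231 and 0.242 CPM in B6 and 2.30, 3.41, 1.57, 2.61 and 1.84 CPM in C3. The strains did not overlap, and the log2 fold changes were 2.27 ± 0.22 in females and 2.96 ± 0.26 in males. None of its exon windows was repeated elsewhere.

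**Figure D3:**
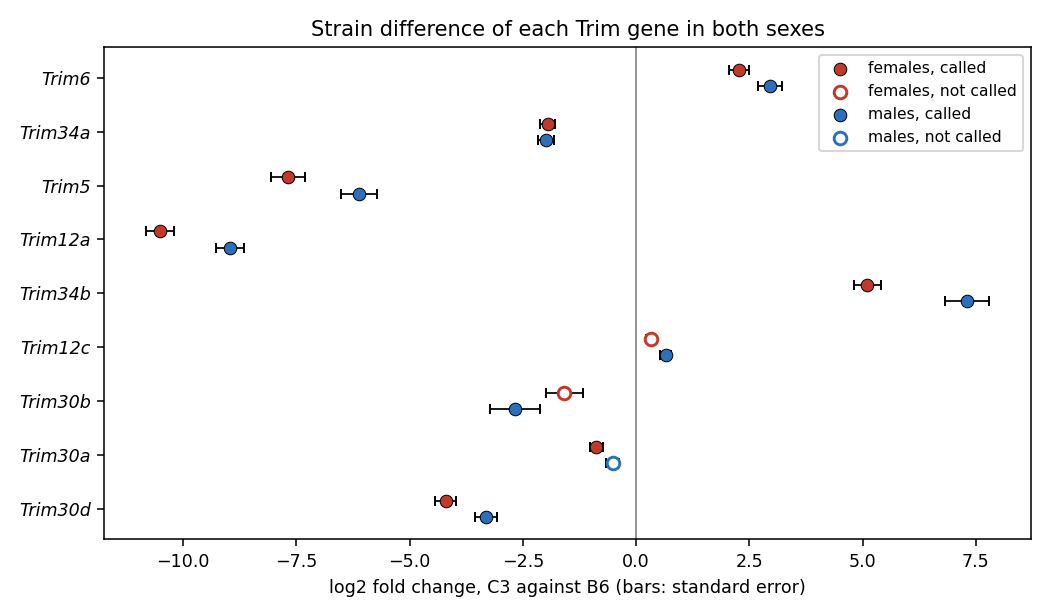
Log2 fold change of C3 against B6 (horizontal axis) for each gene in females (red) and males (blue), with bars for the standard error and filled points for called genes. Trim12a, Trim5 and Trim30d lie farthest to the left and Trim34b and Trim6 to the right, and the values of Trim12a, Trim5 and Trim34b depend on the few counts of the low strain.

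The direction of the strain difference was the same in each sequencing pool for all 7 genes with counts in every pool, in females and in males. No ratio could be formed in at least 1 pool for Trim5 and Trim12a in females and for Trim12a and Trim34b in males, because the low strain had no count there.

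To compare genes with each other, the deposited TPM (transcripts per 1000000) were used, which divide by gene length. In B6 females the order of mean TPM was Trim12a (18.9 ± 3.21, SD, n = 5), Trim12c (12.1 ± 2.09), Trim34a (10.2 ± 1.09), Trim30a (9.95 ± 1.09), Trim30d (8.96 ± 1.99) and Trim5 (4.51 ± 0.649), with Trim6, Trim30b and Trim34b below 1 TPM in every liver. Each of the first 4 overlapped the next in range, and Trim30d did not overlap Trim5. B6 males had the same leading 6 in the same order, from 10.05 ± 2.01 TPM for Trim12a to 1.93 ± 0.361 for Trim5.

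In C3 the order was different. Trim12c led with 14.4 ± 1.14 TPM in females and 9.81 ± 1.33 in males, and it did not overlap the next gene, Trim30a, at 5.17 ± 1.12 and 3.41 ± 0.356 TPM. Trim34b came next at 3.42 ± 0.682 TPM in females and 1.87 ± 0.355 in males, and its range overlapped that of Trim30a in females and that of Trim34a (2.52 ± 0.375 and 1.44 ± 0.491) in both sexes. Trim6 followed, at 1.80 ± 0.119 and 1.26 ± 0.388 TPM, overlapping Trim34a in males, and Trim30d, Trim30b, Trim5 and Trim12a were lowest.

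Of the TPM of all 9 genes, Trim12a made up 28.8% ± 3.37 in B6 females and 29.8% ± 5.41 in B6 males, whereas in C3 Trim12c made up 51.8% ± 3.18 for females and 54.1% ± 3.28 for males. The summed TPM of B6 was 65.4 ± 6.28 for females and 33.8 ± 4.85 for males, and that of C3 was 27.8 ± 2.92 for females and 18.2 ± 2.37 for males. The cluster as a whole was thus lowest in C3 males and highest in B6 females.

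Sums over close copies do not depend on which copy of a sum a read pair was assigned to. They do not restore pairs that were not counted, and the Trim12 sum leaves out Trim5, which shared windows with both Trim12 genes. Trim12a and Trim12c together measured 35.2 CPM ± 3.32 in B6 females and 25.4 ± 2.26 in C3 females, without overlap. In males the sum was 20.0 ± 3.36 in B6 and 17.9 ± 2.49 in C3, with overlapping ranges. Trim34a and Trim34b together in C3 were 0.441 of B6 in females and 0.422 in males, and the Trim30 genes together were 0.297 and 0.422. For all 9 genes the ratio of C3 to B6 was 0.504 in females and 0.652 in males.

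The sexes were compared within each strain to ask whether the cluster is sex-biased, a question that played no part in picking it. In B6, 5 of 9 genes rose in females relative to males (Trim12a, Trim12c, Trim30a, Trim30d and Trim5), where 6.34% of all genes were called and 3.23% were called as higher in females. All 9 fitted values lay above 0, as did 50.2% of those of all genes, with a median log2 fold change of 0.80 against 0.0018 over all genes tested. Trim30b passed the filter on low counts through B6 females, where it is higher, so its sign lends no support to a sex bias. The 5 females lay above the 5 males without overlap for 6 of the 9 genes, against 7.81% of all genes.

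**Figure D4:**
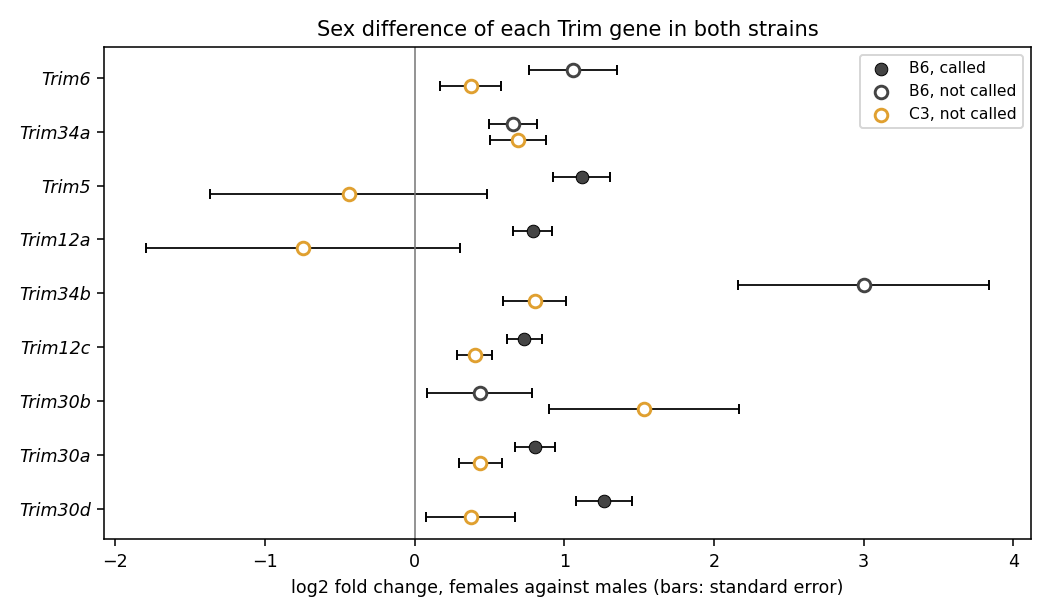
Log2 fold change of females against males (horizontal axis) for each gene in B6 (black) and C3 (orange), with bars for the standard error and filled points for genes that passed the test. In B6, 5 genes passed and all 9 lie to the right of 0, while in C3 no gene passed and Trim5 and Trim12a, with few C3 counts, have the longest bars to the left.

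By edgeR's quasi-likelihood test with Benjamini-Hochberg adjustment, Trim30d was 2.40-fold higher in B6 females than in males (log2 fold change 1.27 ± 0.19 SE, adjusted p = 5.00e-05). Trim5 was 2.17-fold higher (1.12 ± 0.19, adjusted p = 0.000232). Trim30a was 1.74-fold higher (0.80 ± 0.14, adjusted p = 0.000192), Trim12a 1.73-fold (0.79 ± 0.13, adjusted p = 0.000157) and Trim12c 1.66-fold (0.73 ± 0.12, adjusted p = 0.000121). For each of these 5 genes, the liver values given above show every B6 female above every B6 male.

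The remaining B6 genes did not pass the threshold of 0.001 in edgeR's test, although DESeq2 and limma on log2(TPM + 1) each called 6 genes, the same 5 and Trim34a. By edgeR Trim34a had a log2 fold change of 0.66 ± 0.16 (adjusted p = 0.00394) with no overlap between the sexes, Trim6 1.06 ± 0.29 (adjusted p = 0.00969) and Trim34b, at 14 counts in all females and 1 in all males, a summed count ratio of 12.9 (95% counting interval 1.96 to 544, adjusted p = 0.0101). Trim30b was at 0.43 ± 0.35. The direction was the same in each of the 3 pools for all 8 genes with counts there, whereas in C3 this held for 6 of 7 genes, with Trim30d at -0.30 in pool 2. On deposited TPM, fitted with limma on log2(TPM + 0.1), the median of all genes between sexes was itself 0.11 in B6 and 0.12 in C3, and 71.6% and 77.4% of all calls were higher in females, against 50.9% and 59.6% by edgeR on counts and 64.3% and 70.0% by edgeR with upper-quartile scaling. The 5 genes were called there too, at log2 fold changes above that median. The number called was sensitive to the fit, at 6 with DESeq2 and with limma on log2(TPM + 1), 2 without the pool term, which lost Trim5, Trim12a and Trim12c, and 3 when B6 livers were fitted alone. Leaving out B6 female 1, 3 or 4 or B6 male 3 or 5 lost Trim5, and leaving out B6 male 1 lost Trim30a.

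In C3, 0 of 9 genes passed edgeR's test between the sexes, where 6.90% of all genes were called, while 5 had an unadjusted p under 0.05, as did 49.0% of all genes. DESeq2 and limma on log2(TPM + 0.1) also called 0, and limma on log2(TPM + 1) called 1, Trim34b. All 5 had higher fitted values in females. Trim34b had a log2 fold change of 0.80 ± 0.21 (edgeR, adjusted p = 0.00654) and Trim34a of 0.69 ± 0.19 (adjusted p = 0.00794). Trim12c was at 0.40 ± 0.12 (adjusted p = 0.0123), Trim30a at 0.44 ± 0.14 (adjusted p = 0.0223) and Trim30b at 1.53 ± 0.63 (adjusted p = 0.0627). The sexes did not overlap for Trim34b and Trim12c, against 13.4% of all genes without overlap in either direction. The other 4 genes ranged from -0.74 to 0.37. Trim12a, with 3 counts over all C3 livers, and Trim5, with 9, held too few counts there to pass, so the count of 0 rests on the other 7 genes.

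The interaction of sex and strain tests whether the sex difference itself differs between B6 and C3. By edgeR 0 of 9 genes passed, where 0.401% of all genes were called, and 2 had an unadjusted p under 0.05, as did 16.1% of all genes. DESeq2 called 0, limma on log2(TPM + 0.1) called 0, and limma on log2(TPM + 1) called 1, Trim5. Trim30d had a sex difference smaller in C3 by a log2 value of -0.89 ± 0.36 (edgeR, adjusted p = 0.210) and Trim34b by -2.20 ± 0.86 (adjusted p = 0.201), which turned to 0.50 on log2(TPM + 1). The other 7 genes ranged from -1.56 to 1.10. Trim12a and Trim5 in C3 and Trim34b in B6 were nearly without counts, so for them the test says little. A smaller sex difference of Trim30d or Trim34b in C3 was not shown.

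The 32 interferon-stimulated genes, listed because many genes of the cluster are themselves induced by interferon, were compared in the same way. In B6, 9 rose in females and 0 fell, where 3.23% of all genes were called as higher in females. Of the 32 fitted values 31 lay above 0, with a median log2 fold change of 0.54 against 0.0018 over all genes. In C3, 2 rose, a share near the 6.90% of all genes called, 28 lay above 0 and the median was 0.42. Oas1a, which makes the activator of an RNA-cleaving enzyme, passed in both strains, at 0.98 ± 0.16 in B6 and 0.86 ± 0.16 in C3.

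Between strains 1 gene of the interferon list rose in C3 females and 2 fell, a share near the 9.40% of all genes called, and in males 2 rose and 3 fell, beside 9.64% of all genes. Fitted values lay above 0 for 8 of 32 genes in females and 12 of 32 in males. Mx2, a dynamin-like antiviral GTPase, was higher in C3 by 1.03 ± 0.13 in females and 1.43 ± 0.14 in males, whereas Bst2, the tetherin that holds virus at the cell surface, was lower by -1.09 ± 0.10 and -0.74 ± 0.10. The list's medians were -0.26 in females and -0.13 in males, and its values ran from -1.09 to 1.43 over both sexes.

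**Figure D5:**
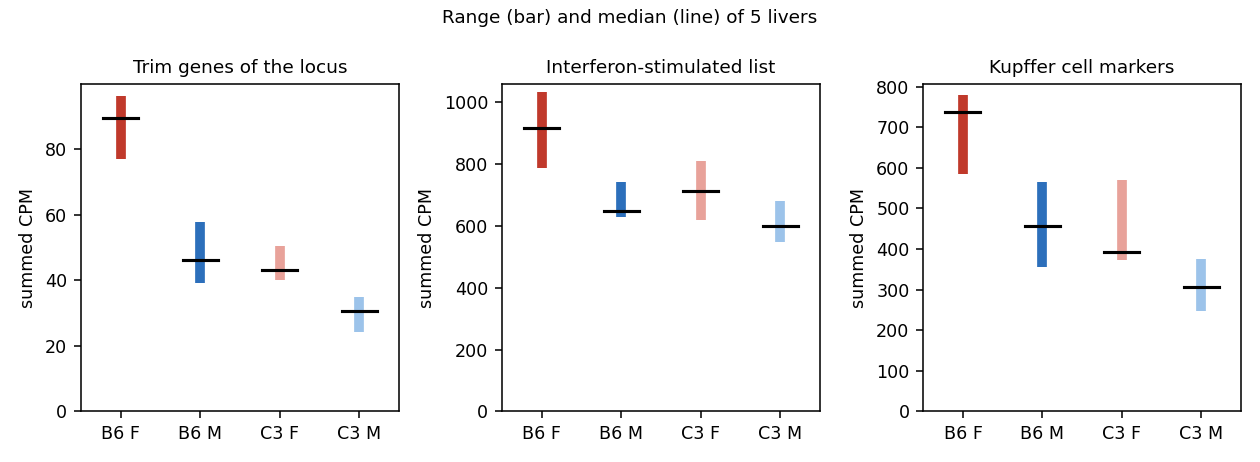
Summed level in CPM (vertical axes from 0) of the 9 Trim genes, the interferon-stimulated list and the Kupffer cell markers by strain and sex. Bars run from the lowest to the highest of 5 livers and black lines mark the median. By median, all 3 sums are highest in B6 females and lowest in C3 males. The same holds for the lymphocyte, endothelial and stellate markers, which are not drawn. Ranges of the interferon list overlap between B6 females (787 to 1034 CPM) and C3 females (618 to 810 CPM). The bars of C3 males overlap those of B6 males for the interferon list and the Kupffer cell markers.

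Markers of Kupffer cells, the resident macrophages of the liver, moved with both comparisons. Their summed level ran from 584 to 779 CPM in females of B6 and from 356 to 564 in its males, and in C3 from 373 to 570 in females and from 248 to 375 in males. None of the 10 was at 0 throughout a group. Between strains 7 of 10 fell in C3 females and 4 in C3 males, beside 9.40% and 9.64% of all genes called. Among those that fell in both sexes were Adgre1 (-0.94 ± 0.15 and -0.91 ± 0.16), C1qb (-0.79 ± 0.11 and -0.72 ± 0.11) and Csf1r (-0.91 ± 0.09 and -0.60 ± 0.10). Between sexes all 10 lay above 0 in both strains, and Vsig4, a complement receptor, passed in B6 (0.75 ± 0.09) and in C3 (0.51 ± 0.10). The part of these cells in the differences of the Trim genes was not tested. The medians of the marker list were -0.79 between strains in females and -0.55 in males, and 0.50 between sexes in B6 and 0.36 in C3.

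The other marker lists differed in how evenly they moved. Summed lymphocyte markers ran from 30.2 to 38.1 CPM in B6 females and from 14.2 to 16.5 in C3 males, and Klrb1c, which encodes the NK1.1 antigen, was lower in C3 by -3.04 ± 0.49 in females and -4.28 ± 0.76 in males. Of 10 lymphocyte markers tested, 1 fell in C3 females and 2 in C3 males, beside 9.40% and 9.64% of all genes called. Fitted strain differences lay above 0 for 2 of the 10 in females and 1 in males, with medians of -0.68 and -1.41. Between sexes, 9 of the 10 had higher fitted values in females in each strain, with medians of 0.56 in B6 and 1.31 in C3. Cd4, listed as a marker of helper T cells, was the exception and was lower in females than in males of both strains (-2.00 ± 0.19 in B6 and -2.56 ± 0.19 in C3). In C3 males Cd4 averaged 4.91 CPM, beside 0.069 CPM for Cd3e and 0.21 CPM for Cd3g. Which cells held the Cd4 RNA was not tested. Of the 5 endothelial markers, Lyve1 fell in C3 females (-0.98 ± 0.19), while the median of the list was -0.03 in females and 0.001 in males. Between sexes all 5 had higher fitted values in females in B6 and 4 did in C3, with medians of 0.27 and 0.23. The 4 stellate cell markers had medians of -0.37 and -0.23 between strains and 0.42 and 0.23 between sexes in B6 and C3. All 4 lay below 0 between strains in both sexes and above 0 between sexes in both strains. Among the 4 cholangiocyte markers, at 3.67 to 8.48 CPM in sum over all livers, Sox9 fell in females against males (-1.42 ± 0.17 in B6 and -0.84 ± 0.17 in C3) and rose in C3 females against B6 females (0.85 ± 0.17). The other 3 went the opposite way, with list medians between sexes of 0.06 in B6 and 0.42 in C3. Between strains in females the list median was -0.01. Of the 6 hepatocyte markers, Apoa1 was higher in C3 (0.84 ± 0.11 in females and 0.71 ± 0.12 in males). The part of these cells was likewise not tested.

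Among the 58 other Trim genes of the genome, 30 were tested. In C3 females 3 of them rose against B6 and in C3 males 1 fell, beside 9.40% and 9.64% of all genes called. The medians of the 30 were 0.08 and 0.15. Trim68 was at 1.04 ± 0.18 in females and 0.70 ± 0.20 in males, Trim13 at 1.10 ± 0.17 and -0.16 ± 0.17, and Trim2 at 0.21 ± 0.12 and -0.69 ± 0.12. Between sexes in B6, 2 rose in females and 3 fell, beside 6.34% of all genes called. Trim24, a nuclear receptor cofactor, was higher in females of both strains (2.30 ± 0.21 in B6 and 2.23 ± 0.21 in C3). Between strains in females these 30 genes ran from -1.09 to 1.10, beside -10.5 to 5.11 for the 9 genes of the cluster.

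The TAK1 and NF-kB relay lies downstream of TRIM5 proteins and of Trim30a. For its 18 listed genes, such as Map3k7, Tab2 and Tab3, fitted strain differences ranged from -0.56 to 0.44 in females and from -0.31 to 0.43 in males. Over the 4 comparisons 1 call was made, for Ikbkg, the regulatory subunit of the IkB kinase. It was lower in C3 females than in C3 males (-0.68 ± 0.07), where 6.90% of all genes were called. Of the 12 retrovirus restriction genes, 11 were tested and 1 fell in C3 in each sex, which was Bst2 again, beside 9.40% and 9.64% of all genes called. Apobec3, a cytidine deaminase that acts on retroviral genomes, was higher in C3 females than in C3 males (0.91 ± 0.16).

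Few other transcripts were found around the cluster. From 1000000 bases before to 1000000 bases after it the tables hold 107 further loci, of which 84 are olfactory receptor genes and 99 had no count in any liver. Only Fam160a2 and Prkcdbp had enough counts to be tested and neither was called, with strain differences of -0.001 ± 0.062 and -0.24 ± 0.27 in females and -0.11 ± 0.06 and -0.89 ± 0.28 in males. Within the cluster, Gm15133 lies on the strand opposite to Trim12a and overlaps its 5′ end. It had 4 to 10 counts in each B6 female and 1 or 2 in each B6 male, and no count in any C3 liver, which allows up to 0.110 CPM in the shallowest library. It was too low to be tested. Trim30c was not analysed here.

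With the genes of the cluster left out of the ranking, the 5 genes whose log2 CPM followed that of Trim12a most closely over the 20 livers lay on other chromosomes. They were 4930481A15Rik (Pearson r = 0.993, chromosome 19), Olfr1033 (0.990, chromosome 2), Acpp (0.988, chromosome 9), Lncbate1 (0.987, chromosome 8) and Pttg1 (0.987, chromosome 11). All 5 were low or without counts in C3, with Pttg1 at 21.96 CPM in B6 and 1.46 in C3, so the correlation over these livers describes a shared difference between 2 strains.

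Within groups, after the means of group and pool were removed, the correlations between the 9 genes are given as a description, with no other gene set for reference. Over the 36 pairs of genes the Pearson r across the 20 livers had a median of 0.29 and ran from -0.53 (Trim5 and Trim30b) to 0.68 (Trim12a and Trim30d), and 32 pairs lay above 0. Trim12c and Trim30a reached 0.61. The pairs share livers and their depth, and Trim12a, Trim5 and Trim34b contribute little beyond counting error in the strain where they were nearly undetected.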

How the data were processed

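Livers of 20 mice, 5 in each group of strain and sex, were analysed. Groups and pools were taken from the sample labels. The authors deposited counts per gene, not normalized, of read pairs. Libraries of total RNA kept strand information, ribosomal RNA had been removed, and reads were processed with Cutadapt 1.9.1, STAR 2.5.1b (mm9) and featureCounts of Subread 1.5.0-p1 on RefSeq genes, without read pairs that map to several places. The authors also deposited TPM values, and the gene length used for them is not given in the sources used here. The column headers for symbol and identifier are exchanged in the deposited tables, which were read by their content.

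Counts were filtered with filterByExpr, normalized by TMM and fitted in edgeR 4.0.16 (R 4.3.3) with group and pool over all 20 libraries, and p-values were adjusted over 13704 genes. Tests are two-sided, and SE is the absolute log2 fold change divided by the square root of F. CPM in the text is count over the library total. Ratios of summed counts carry exact 95% intervals for counting error only. Replicates were separate mice. On data simulated with this design for females against males in B6, 74 of 100 genes changed 2-fold and 91 of 100 changed 4-fold were called among 13704, and in the simulated C3 comparison without change 0 were. DESeq2 1.42.0, limma 3.58.1 on log2 TPM, other scalings, filters, thresholds and models, and leaving out each library were tried as alternatives. Sequences came from mm9 (NCBIM37) and its GENCODE transcripts, aligned with Biopython 1.88.

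The members and lists were chosen with earlier results of these data known, and all lists were written from general knowledge. Every member is given. Members with an unadjusted p under 0.05 between sexes or in the interaction are given one by one and the others by range, except that Trim30b in B6 was also given singly. From each list the text takes up to 3 genes with the largest mean change among those called in both settings, or in 1 setting where no gene was called in both. Neighbours were to be named where called, and both tested neighbours are named although neither was.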

Additional observations from a re-analysis of the deposited data

Results flagged for a closer look

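Each of the 9 genes in each of the 4 groups was searched for a single liver whose gap to the nearest other liver exceeded 0.71 of the group's whole range. For normally distributed values, chance alone gives this in about 1 of 20 groups, a rate that does not apply to counts near 0. Of 36 groups of 5 livers, 3 held such a value, and all are low counts. Trim12a measured 0.0232 CPM in C3 female 3, from 1 count, with the other 4 at 0. Trim34b measured 0.0298 CPM in B6 male 2, also from 1 count, with the other 4 at 0. A group with 1 count in a single liver and 0 in the other 4 always meets this rule. Trim30b measured 0.286 CPM in C3 female 4, from 10 counts, against 0.0463 to 0.0915 CPM in the other C3 females. The first 2 values are below the level of 3 counts, and the strain difference of Trim30b in females was called only without C3 female 4 among the left-out livers.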

How the results depend on the processing

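Of the sex and interaction values of single genes, 121 of 131 under other tests, scalings, filters and models and 164 of 170 with a liver left out kept their direction and side of the threshold, and for strain values these were 155 of 161 and 166 of 180. The number of Trim genes called between sexes in B6, 5 as reported, was 2 without the pool term, 3 with only B6 livers in the fit and 8 at an adjusted p under 0.05 with any fold change. In C3 it went from 0 to 1 with limma on log2(TPM + 1) and 4 at the looser threshold, and the interaction from 0 to 1 with limma on log2(TPM + 1). The interaction of Trim34b reversed to 0.50 on log2(TPM + 1) and 0.011 on log2(TPM + 0.1). With a liver left out, 7 to 8 Trim genes were called between strains in females, 6 to 7 in males, 4 to 5 between sexes in B6, 0 to 0 between sexes in C3 and 0 to 0 in the interaction. Over all genes, the calls at the looser threshold were 4515 between strains in females, 4733 in males, 4742 between sexes in B6, 5479 in C3 and 405 in the interaction, against 1288, 1321, 869, 945 and 55 as reported. Without the pool term they were 815 between strains in females, 421 and 482 between sexes in B6 and C3 and 20 in the interaction, and only C3 livers in the fit gave 625 between sexes, while DESeq2 gave 182 in the interaction. The cause was not tested. Replicate numbers are shared between groups but name different mice, and same-numbered mice did not deviate together throughout, with correlations from -0.46 to 0.63. With the replicate number as a block, 7 Trim genes were called between strains in females, 7 in males, 5 between sexes in B6, 0 in C3 and 0 in the interaction. At 3 counts a library can show a gene from 0.0641 to 0.110 CPM, which limits Trim12a and Trim5 in C3 and Trim34b in B6.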
